A study of Mus musculus with 18 samples.

Results

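A set of 10 genes of water transport and hydrocephalus was followed in the mouse subventricular zone (SVZ), the stem cell niche in the wall of the lateral ventricle: the aquaporins *Aqp1*, *Aqp4*, *Aqp9* and *Aqp11*, the ion cotransporter *Slc12a2*, and *L1cam*, *Mpdz*, *Ccdc88c*, *Snx27* and *Ap1s2*. They were chosen by name, with earlier results of these data known. Every array probe annotated with the symbol of one of them and no other was taken, 30 probes for 10 genes out of 34885 such probes in all. Tissue came from 9 Tam-Idh1-KI mice and 9 control mice of the c57bl6 strain, aged 5 to 9 months, and the study describes dilated lateral ventricles in Tam-Idh1-KI animals. The Tam-Idh1-KI mice carried Nes-CreER(T2) and were heterozygous, Idh1 fl(R132H)/+, so that tamoxifen switched on Idh1R132H from its own promoter in nestin-expressing cells, and the controls were Idh1+/+ littermates, with or without the Cre transgene. Both groups had received tamoxifen, injected into the peritoneum at 50 mg/kg a day for 5 days from 5 to 6 weeks of age. The study describes the floxed allele as leaky, that is, active in some measure without Cre.

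Cerebrospinal fluid is secreted mainly by the choroid plexus, whose epithelium moves sodium, potassium and chloride and lets water follow, and it is driven along the ventricle wall by the cilia of ependymal cells. Aquaporins are membrane channels for water and, in some members, for glycerol and other small solutes. Hydrocephalus, a widening of the ventricles with fluid, follows in people or mice from loss of genes that serve adhesion, epithelial junctions, cilia or the sorting of membrane proteins, which is what the other genes of the group have in common.

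Every mouse had an Illumina Mouse WG6-v2 array of its own. The arrays were run on 2 days, the first with 6 Tam-Idh1-KI and 6 control mice and the second with 3 and 3. There were 5 females and 4 males among the Tam-Idh1-KI mice and 3 females and 6 males among the controls, with a median age of 5 months against 6 months. Mean bead signal ran from 460.2 to 904.9 in Tam-Idh1-KI arrays and from 454.2 to 678.7 in control arrays, and 46.3% to 50.7% of probes were detected in the Tam-Idh1-KI group against 44.6% to 50.9% in the controls. *Idh1*, the targeted gene, was at 9.39 ± 0.26 in Tam-Idh1-KI and 9.74 ± 0.22 in control SVZ (log2, SD, n = 9 each), with a log2 fold change of -0.37 (SE 0.11, limma adjusted p = 0.272). As the study describes it, Cre removes from the floxed allele a wild-type mini-gene with a polyA signal and a resistance cassette. The *Idh1* level to be found in such tissue is not known here, so this value does not check the labels. Markers of the neighbouring epithelia were detected in the SVZ dissections of both groups, where the choroid plexus markers *Ttr*, *Folr1*, *Kl* and *Otx2*, the ependymal regulator *Foxj1* and the astrocyte genes *Slc1a3* and *Gja1* were each detected on 18 of 18 arrays. In such bulk tissue, fewer cells of a type and less RNA per cell cannot be told apart.

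The arrays read these genes unevenly. A probe counted as detected where its detection p-value, which sets its signal against negative control beads, was under 0.05, and it was tested where this held on at least 9 of 18 arrays. Of the 30 probes, 18 were tested and 14 of these were detected on all 18 arrays, while 5 were detected on none. Probe by probe, 9 of the 10 genes could be tested, and 8 of them had a probe detected on every array. The exception was *L1cam*, whose single probe was detected in 3 Tam-Idh1-KI and 1 control mouse. Where a gene had further probes that stayed near background, as *Slc12a2* with 3 and *Mpdz* with 3, those probes are given no fold change.

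**Figure D1:**
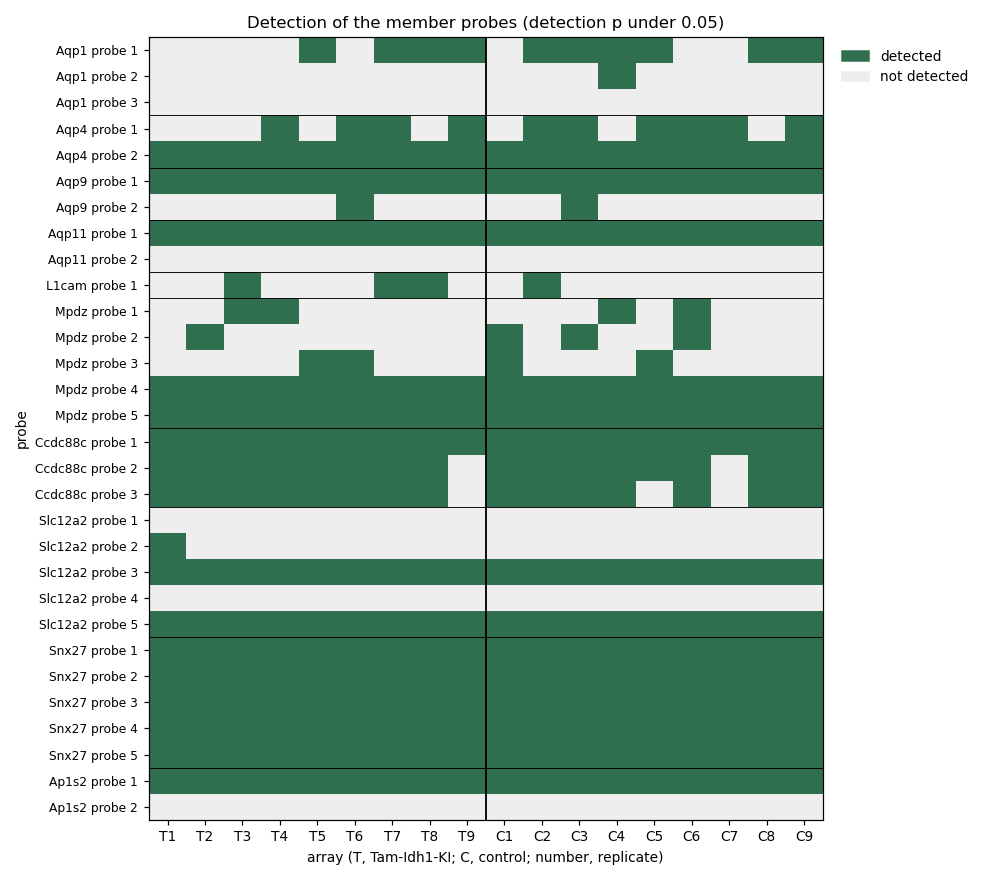
Detection of the 30 probes (rows) on the 18 arrays (columns, Tam-Idh1-KI replicates T1 to T9 left of control replicates C1 to C9); green marks a detection p-value under 0.05. *Aqp4*, *Aqp9*, *Aqp11*, *Mpdz*, *Ccdc88c*, *Slc12a2*, *Snx27* and *Ap1s2* each have a probe that is green throughout, while *Aqp1* and *L1cam* have none.

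Between Tam-Idh1-KI and control SVZ, none of the 18 tested probes differed past the threshold, an adjusted p under 0.05 from limma, a linear model fitted to every kept probe with hybridisation day and sex as covariates. Over all 21644 kept probes that threshold was passed by 21, or 0.097%, of which 9 were higher (0.0416%) and 12 lower (0.0554%) in Tam-Idh1-KI SVZ, so a count of 0 among 18 probes is close to what the background share gives. *Aqp4* probe 2 was the only one of the 18 with an unadjusted p under 0.05, that is 5.56% of the tested probes, against 8.98% of all probes. The log2 fold changes, Tam-Idh1-KI minus control, had a median of -0.02 over the 18 probes and 0.00 over all kept probes (0.0047 unrounded), and 7 of 18 (38.9%) were positive, against 51.4% of all probes. In every tested probe the values of the 9 Tam-Idh1-KI and 9 control mice overlapped. The share of all kept probes with overlapping groups was not counted, so whether this overlap is particular to these genes is not known here. The 95% intervals lay between -0.74 and 0.55 on the log2 scale. Values near background understate a change in transcript level, so the intervals of the dim probes do not bound it.

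*Aqp4* encodes the water channel of astrocyte endfeet and of the basolateral membrane of ependymal cells. Its probe 2 (ILMN_2757232) had a lowest, median and highest log2 value of 11.17, 11.96 and 12.21 in Tam-Idh1-KI mice and of 11.12, 11.56 and 11.999 in control mice. Most Tam-Idh1-KI mice were in the upper part of the joint range, 8 of 9 above the control mean of their own hybridisation day, but the ranges overlapped over most of their width. The log2 fold change was 0.27 (standard error, SE, 0.13, 95% interval 0.01 to 0.54), a 1.21-fold difference that did not pass the threshold (unadjusted p = 0.0436, limma adjusted p = 0.542). On the first day it was 0.26 (SE 0.12) and on the second 0.33 (SE 0.26), and the interaction with day did not pass. Here and below, the fit of the first day alone held sex as a covariate and that of the second day alone did not. Probe 1 (ILMN_1227682), which is annotated to the cDNA clone AK044074 and not to the *Aqp4* RefSeq transcript, had a log2 fold change of -0.08 (SE 0.16) and was detected in 4 Tam-Idh1-KI and 6 control mice. Its day-centred values did not follow those of probe 2 (r = 0.01 over 18 arrays), and it lay near background.

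Transcripts of the other aquaporins lay near or moderately above background. *Aqp1*, the water channel of the apical face of the choroid plexus, had 4.91, 5.22 and 6.36 (lowest, median and highest log2 value of probe 1, ILMN_2756486) in Tam-Idh1-KI mice and 4.87, 5.40 and 6.27 in control mice, and was detected in 4 and 6 of them. The ranges nearly coincide, and the log2 fold change was -0.14 (SE 0.19, 95% interval -0.55 to 0.27, limma adjusted p = 0.908). It was -0.33 (SE 0.21) on the first day and 0.32 (SE 0.28) on the second, when all 3 Tam-Idh1-KI mice were female, and the interaction with day did not pass (limma adjusted p = 1.00, unadjusted p = 0.143). The other *Aqp1* probes were detected on 1 and 0 arrays.

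*Aqp9*, an aquaglyceroporin that also passes glycerol, had 5.87, 6.71 and 7.17 in Tam-Idh1-KI mice and 5.87, 6.84 and 7.12 in control mice on probe 1. Neither group stood above the other, with a log2 fold change of 0.08 (SE 0.17, limma adjusted p = 0.949). *Aqp11*, an intracellular aquaporin, had 7.34, 7.63 and 8.01 in Tam-Idh1-KI mice and 7.23, 7.68 and 7.98 in control mice on probe 1, and a log2 fold change of -0.04 (SE 0.12, 95% interval -0.30 to 0.22, limma adjusted p = 0.969). The remaining family members could not be compared: the arrays held probes of 8 further aquaporin genes and no such probe reached 9 detected arrays. *Aqp3* came closest with 8 arrays, then *Mip*, which encodes the aquaporin of the lens, with 7.

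*Slc12a2* encodes the cotransporter that carries sodium, potassium and chloride across the apical membrane of the choroid plexus. Probe 3 (ILMN_2700059) read 11.46, 12.09 and 12.30 in Tam-Idh1-KI mice and 11.62, 11.78 and 11.95 in control mice. In the Tam-Idh1-KI group 5 mice were above the highest control and 1 was below the lowest, and the SD was 0.27 in Tam-Idh1-KI and 0.11 in control mice. The log2 fold change was 0.22 (SE 0.11, 95% interval -0.01 to 0.44, unadjusted p = 0.0563, limma adjusted p = 0.580), with 7 of 9 Tam-Idh1-KI mice above the control mean of their day. Probe 5 (ILMN_3146420) followed probe 3 across mice (r = 0.66) and had 9.79, 10.05 and 10.47 in Tam-Idh1-KI mice and 9.77, 9.91 and 10.26 in control mice. Its log2 fold change was 0.16 (SE 0.11, limma adjusted p = 0.733), on the same side as probe 3 and likewise short of the threshold. The 2 probes share the gene and the animals and are not separate evidence.

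**Figure D2:**
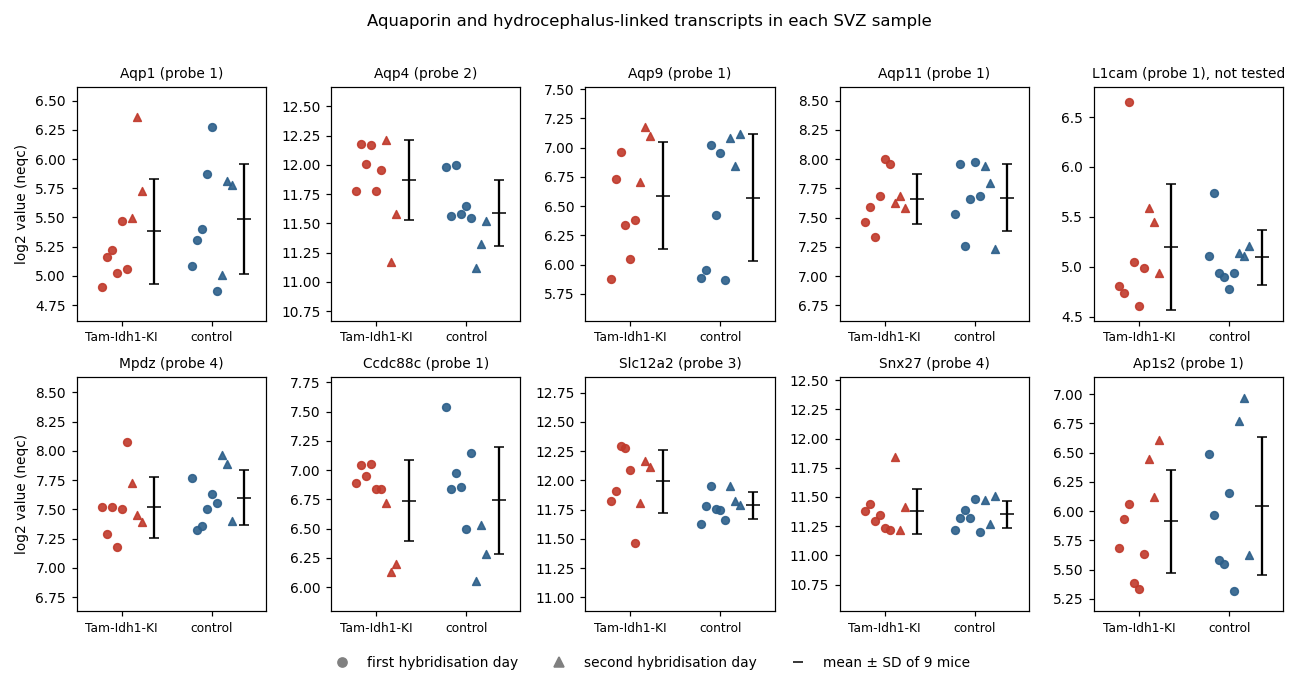
Log2 value (neqc) in each mouse for the brightest tested probe of each gene and the single probe of *L1cam*, with Tam-Idh1-KI left and control right; circles are the first and triangles the second hybridisation day, and bars give mean ± SD of 9 mice. Every panel has its own axis, and in each panel the groups overlap; 8 of 9 Tam-Idh1-KI mice lie above the same-day control mean for *Aqp4*, against 1 of 9 for *Mpdz*.

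*Mpdz* encodes a scaffold of many PDZ domains at tight junctions, and its loss causes congenital hydrocephalus. Probe 4 (ILMN_2662776) had 7.18, 7.51 and 8.07 in Tam-Idh1-KI mice and 7.33, 7.56 and 7.96 in control mice. Its log2 fold change was -0.07 (SE 0.12, 95% interval -0.32 to 0.18, limma adjusted p = 0.931), and 1 of 9 Tam-Idh1-KI mice was above the control mean of its day. The difference is smaller than the SD of the controls, 0.23. Probe 5 differed by 0.01 (SE 0.15), with 7 of 9 Tam-Idh1-KI mice above.

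*Ccdc88c*, which encodes a Dishevelled-binding protein mutated in human hydrocephalus, had 3 tested probes. Probe 1 (ILMN_1225808) was at 6.13, 6.84 and 7.05 in Tam-Idh1-KI mice and at 6.05, 6.84 and 7.54 in control mice, with equal medians at this rounding and a log2 fold change of -0.05 (SE 0.12, limma adjusted p = 0.958). Probes 2 and 3 had log2 fold changes of 0.06 (SE 0.24) and -0.31 (SE 0.21, unadjusted p = 0.155, limma adjusted p = 0.742). The widest intervals of all members were those of probes 2 and 3, each of which fell under detection on some arrays.

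*L1cam*, the X-linked adhesion molecule of axons, gave no testable signal. Its probe read 4.61, 4.99 and 6.65 in Tam-Idh1-KI mice and 4.78, 5.11 and 5.74 in control mice. A single mouse, Tam-Idh1-KI replicate 3, made the top of the range, and the next Tam-Idh1-KI value was 5.59. Whether *L1cam* differs between the groups is not detectable with this probe.

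*Snx27* encodes a sorting nexin that returns membrane proteins from endosomes to the cell surface with the retromer, and mice without it develop hydrocephalus. Its 5 probes were detected on all arrays and fell into 4 with log2 fold changes of -0.06 to 0.03 and 1 further from 0. Probe 4 (ILMN_1258788) had 11.22, 11.35 and 11.84 in Tam-Idh1-KI mice and 11.20, 11.32 and 11.51 in control mice, a log2 fold change of 0.03 (SE 0.083). Probes 1, 2 and 3 had log2 fold changes of -0.06 (SE 0.081), -0.0047 (SE 0.081) and -0.0072 (SE 0.090), and intervals that together ran from -0.23 to 0.18. These are the narrowest intervals of the group, with a smallest SE of 0.081. Probe 5 (ILMN_1260052) read 6.49, 6.83 and 7.34 in Tam-Idh1-KI mice and 6.77, 7.08 and 7.99 in control mice. On it a single Tam-Idh1-KI mouse was above the control mean of its day, with a log2 fold change of -0.31 (SE 0.15, 95% interval -0.63 to 0.01, unadjusted p = 0.0539, limma adjusted p = 0.572). Its values did not follow those of the other *Snx27* probes (r from -0.46 to 0.29, against 0.34 to 0.81 among probes 1 to 4), and which transcript each probe reads is not known here.

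*Ap1s2* encodes a small subunit of the clathrin adaptor AP-1, mutated in X-linked intellectual disability with hydrocephalus. Probe 1 (ILMN_2670681) had 5.34, 5.93 and 6.61 in Tam-Idh1-KI mice and 5.32, 5.97 and 6.97 in control mice. The medians lie close together, and the log2 fold change was -0.21 (SE 0.17, 95% interval -0.58 to 0.16, limma adjusted p = 0.810). Probe 2 was detected on no array.

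**Figure D3:**
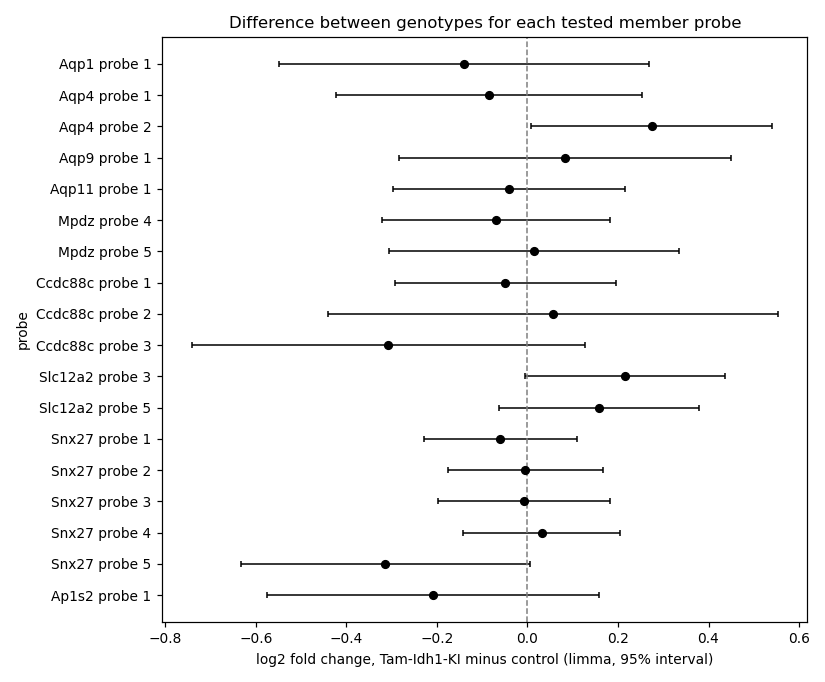
Log2 fold change (Tam-Idh1-KI minus control, x axis) with its 95% interval for each of the 18 tested probes (y axis), from limma with day and sex as covariates; the dashed line marks 0. The interval of *Aqp4* probe 2 (0.01 to 0.54) is the one that leaves out 0, before any adjustment for the number of probes.

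More of these probes differed between hybridisation days than between genotypes. The mice of the second day were all older, at 7 to 9 months against 5 to 6 months on the first, so day and age cannot be told apart in these differences. The day term passed the threshold for 6 of the 18 probes, or 33.3%, against 61.4% of all kept probes, and the sex term for none (0.0185% of all probes). On the second day, relative to the first, *Aqp9* probe 1 was higher by 0.73 (SE 0.19, limma adjusted p = 0.0030) and *Ap1s2* probe 1 by 0.55 (SE 0.19, limma adjusted p = 0.0177). *Ccdc88c* probes 1 and 2 fell by 0.70 (SE 0.13, limma adjusted p = 0.000118) and 0.88 (SE 0.26, limma adjusted p = 0.0067). The *Aqp4* probes ran in opposite directions, 0.42 for probe 1 (limma adjusted p = 0.0437) and -0.38 for probe 2 (limma adjusted p = 0.0243). Fitted with sex on the first day and without it on the second, the genotype difference had the same sign on both days in 11 probes and opposite signs in 7. No interaction of genotype with day or with sex passed for any member (unadjusted p under 0.05 for 0 of 18 in each) or, as 0% of 21644, for any probe on the array.

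*Aqp4* varied across mice with the markers of ependymal cells. An ependymal score was taken in each mouse as the mean log2 value of 12 marker genes, centred on the mean of its hybridisation day. It ran from -0.32 to 0.49 in Tam-Idh1-KI mice, with a median of 0.23, and from -0.46 to 0.08 in control mice, with a median of -0.22, and 8 of 9 Tam-Idh1-KI mice were above the control mean of their day. All 12 genes were positive, with a median log2 fold change of 0.38. None of the 12 passed the threshold (0.122% of 11465 genes did), and 9 had an unadjusted p under 0.05 against 9.19% of all genes. *Cfap52* and *Mlf1*, both of motile cilia, had the smallest p-values, at 0.50 (SE 0.14, limma adjusted p = 0.260) and 0.44 (SE 0.13, limma adjusted p = 0.290), whereas *Foxj1*, the transcription factor of ciliated cells, was at 0.04 (SE 0.13).

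The day-centred value of *Aqp4* probe 2 correlated with this score over the 18 mice (Pearson r = 0.78, permutation p within days 0.00026, 0.0013 adjusted over 5 relations; Spearman rho = 0.79, permutation p = 0.00027). The permutations were within days and not within genotypes, so a genotype difference shared by *Aqp4* and the score enters these p-values. Without the mice farthest from the median score, control replicate 7 and Tam-Idh1-KI replicate 2, r was 0.73. It was 0.75 among the 12 mice of the first day and 0.85 among the 6 of the second, and 0.56 in the Tam-Idh1-KI group against 0.94 in the controls. With the ependymal score as a further covariate the genotype difference of *Aqp4* probe 2 was -0.01 (SE 0.13). The score itself differs with genotype, so these terms share the same mice, and the part of ependymal content in the *Aqp4* difference was not tested. With the astrocyte score, of 13 genes, *Aqp4* gave r = 0.29 (permutation p = 0.222, 0.415 adjusted over 5 relations; Spearman rho = 0.30, permutation p = 0.229), and r = 0.46 without control replicates 1 and 6. That r was 0.51 in the Tam-Idh1-KI group against 0.50 in the controls, and 0.04 among first-day and 0.81 among second-day mice. Whether the correlations with the astrocyte and ependymal scores differ was not tested.

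**Figure D4:**
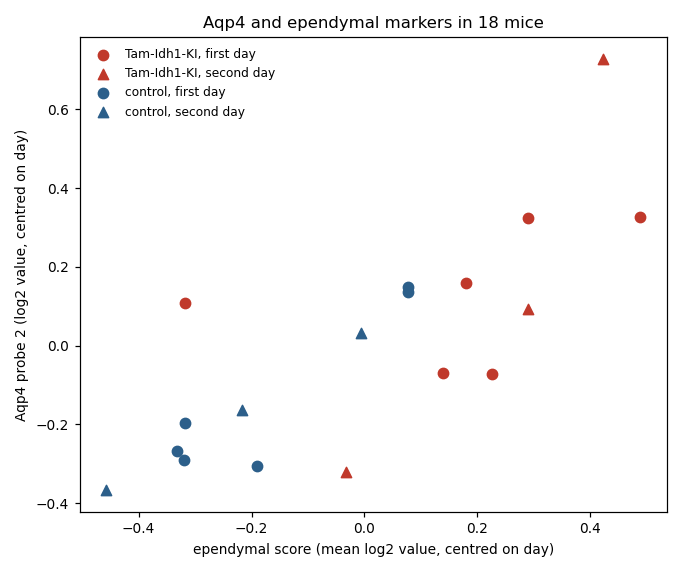
*Aqp4* probe 2 (log2 value, y axis) against the ependymal score (mean log2 value of 12 markers, x axis) in the 18 mice, both centred on the hybridisation day; red is Tam-Idh1-KI and blue control, circles the first and triangles the second day. The points rise together (r = 0.78), with most Tam-Idh1-KI mice at scores above those of the controls.

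With the choroid plexus score, of 9 genes, the transport genes of that epithelium gave no correlation past the threshold over all mice. *Aqp1* gave r = 0.00077 (permutation p = 0.998), *Aqp11* r = -0.29 (permutation p = 0.249) and *Slc12a2* probe 3 r = -0.12 (permutation p = 0.640) over 18 mice, with adjusted values over the 5 relations of 0.998, 0.415 and 0.800. Spearman's rho was 0.05 (permutation p = 0.842), -0.19 (permutation p = 0.461) and -0.17 (permutation p = 0.518) in the same order, and without Tam-Idh1-KI replicates 1 and 7 r was 0.27, -0.23 and -0.04. Within the first and the second day r was -0.27 and 0.50 for *Aqp1*, -0.29 and -0.31 for *Aqp11*, and -0.18 and 0.04 for *Slc12a2*. Within the Tam-Idh1-KI and the control group it was 0.01 and 0.06 for *Aqp1*, -0.40 and -0.22 for *Aqp11*, and -0.12 and -0.83 for *Slc12a2*. The difference between the groups in the *Slc12a2* correlation was not tested. *Aqp1* was detected on 10 of 18 arrays, and values near background limit what its correlation can show. Choroid plexus RNA itself varied between dissections: *Ttr*, the transthyretin gene, ran from 9.70 to 12.71 in Tam-Idh1-KI mice and from 10.79 to 12.45 in control mice. The 9 choroid plexus genes had a median log2 fold change of -0.07, or 0.02 with median scaling of the arrays, with 4 positive and none past the threshold. Of these, *Folr1*, the folate receptor, was at 0.51 (SE 0.15, limma adjusted p = 0.299) and *Sostdc1* at 0.28 (SE 0.12), while *Ttr* was at -0.21 (SE 0.34), *Otx2* at -0.10 (SE 0.18) and *Kl* at -0.07 (SE 0.17).

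Of 109 genes tested in 9 lists, of partners of the members and of other hydrocephalus genes, 1 passed the threshold (0.917%, against 0.122% of all genes). That 1 gene came from the list of other hydrocephalus genes. The lists were chosen with earlier results of these data known, so these shares are a description and no test of an excess. In the complex that anchors *Aqp4* at astrocyte endfeet, 8 genes were tested, 4 positive, with a median log2 fold change of 0.02. *Utrn*, encoding utrophin, was at -0.39 (SE 0.15, limma adjusted p = 0.464) and *Dtnb*, encoding a dystrobrevin, at 0.10 (SE 0.099). The list of cerebrospinal fluid secretion, made of ion pumps, exchangers and carbonic anhydrases, had 7 of 11 genes positive and a median of 0.02. Its smallest p-values were those of the anion exchanger gene *Slc4a2*, at 0.19 (SE 0.10, limma adjusted p = 0.635), and of the carbonic anhydrase gene *Car14*, at 0.28 (SE 0.17). Among the kinases and relatives of *Slc12a2*, 5 of 7 were positive with a median of 0.01. *Slc12a5*, the chloride extruder of neurons, was at -0.24 (SE 0.14, limma adjusted p = 0.662), and the kinase gene *Wnk4* at 0.23 (SE 0.19).

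Junction and polarity partners differed as little. Of 11 partners of *Mpdz*, 6 were positive, with a median of 0.03, and *F11r*, encoding a junctional adhesion molecule, and *Patj*, a polarity scaffold, were at 0.15 (SE 0.13) and -0.18 (SE 0.16). Of 11 partners of *Ccdc88c* in planar polarity, 10 were positive, against 54.5% of all genes, yet the median was only 0.06. The Frizzled receptor gene *Fzd6* was at 0.27 (SE 0.12, limma adjusted p = 0.517) and *Ccdc88a*, a paralogue of *Ccdc88c*, at 0.14 (SE 0.083, limma adjusted p = 0.686), above the same-day control mean in 8 and 9 of 9 Tam-Idh1-KI mice.

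The *L1cam* family and its partners had 3 of 10 genes positive and a median of -0.05, which turned to 0.07 with median scaling of the arrays. *Chl1*, the close homologue of *L1cam*, was at 9.85 ± 0.21 in Tam-Idh1-KI and 10.19 ± 0.21 in control SVZ (log2, SD, n = 9 each), a log2 fold change of -0.37 (SE 0.099, unadjusted p = 0.0015, limma adjusted p = 0.229). *Nrp1*, a semaphorin receptor gene, was at -0.22 (SE 0.090, limma adjusted p = 0.482). In the trafficking lists, 8 of 13 retromer and WASH genes and 5 of 7 AP-1 genes were positive, with medians of 0.03 and 0.02. *Snx5* was at 0.27 (SE 0.14, limma adjusted p = 0.621) and *Washc3* at 0.14 (SE 0.094). *Ap1m1* was at 0.16 (SE 0.10) and *Ap1s1*, a relative of *Ap1s2* in the list, at -0.09 (SE 0.10).

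The single call was in the list of other genes linked to hydrocephalus, many of them genes of motile cilia. *Ak8*, an adenylate kinase gene, read 7.72, 7.90 and 8.69 (lowest, median and highest log2 value) in Tam-Idh1-KI mice and 7.14, 7.34 and 7.87 in control mice. The ranges overlap in a narrow stretch, and 9 of 9 Tam-Idh1-KI mice were above the control mean of their day. The log2 fold change was 0.52 (SE 0.095, 95% interval 0.32 to 0.72, limma adjusted p = 0.0362), and with replicate number as a block in the model, 0.54 (limma adjusted p = 0.105). The call was lost in 13 of the 18 fits that left out 1 mouse (adjusted p up to 0.107), all but those without Tam-Idh1-KI replicate 6, 7, 8 or 9 or control replicate 3, and in 11 of 18 other settings, with a fold change between 0.32 and 0.62 in all 36, and with the ependymal score in the model it was 0.41 (limma adjusted p = 0.688). *Spag6l*, of the ciliary central apparatus, was at 0.46 (SE 0.099, limma adjusted p = 0.115) and also above in 9 of 9 mice. Over the list, 23 of 34 genes (67.6%) were positive with a median of 0.07, against 54.5% of all genes with a median of 0.01. An unadjusted p under 0.05 was found for 5 of the 34 (14.7%), all with positive fold changes, against 9.19% of all genes, which were likewise more often positive (6.19%) than negative (3.00%). In all 9 Tam-Idh1-KI mice the list mean exceeded the average of the same-day controls. The groups overlapped, with day-centred list means from -0.037 to 0.19 in Tam-Idh1-KI mice and from -0.13 to 0.10 in control mice.

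**Figure D5:**
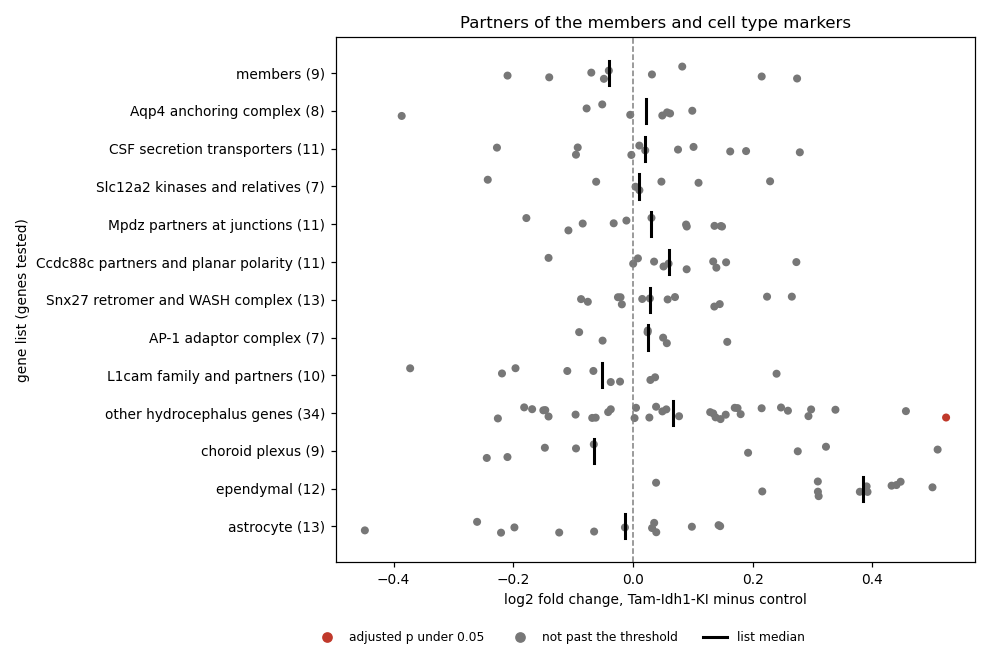
Log2 fold change (Tam-Idh1-KI minus control, x axis) of each tested gene by its brightest probe. The y axis gives the group itself, its partner lists, the list of other hydrocephalus genes and 3 lists of cell type markers (number of genes tested in parentheses). Black bars are list medians and red marks an adjusted p under 0.05. *Ak8*, at 0.52, is the red point, and the 12 ependymal markers all lie right of 0 with a median of 0.38, while the members and partner lists lie around 0.

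By Pearson's r of day-centred values over 18 arrays, taken against 11464 other genes as a description, the genes nearest to *Aqp4* were *Aif1l* (r = 0.88), *S100a11* (r = 0.88) and *Ascc1* (r = 0.86). *Slc12a2* had *Cers2* (r = 0.94), *Shroom1* (r = 0.93) and *Plpp2* (r = 0.92) nearest, and *Snx27* had *Rhoq* (r = 0.92), *Wdr83os* (r = 0.91) and *Tmem138* (r = 0.89). The nearest genes to *Aqp9* were *Dtna* (r = 0.89), a member of the *Aqp4* anchoring list, *Hnrnpm* (r = 0.87) and *Fam174c* (r = 0.87). For *Aqp1* they were *Pgm3* (r = 0.87), *Copb1* (r = 0.81) and *Ppp1cc* (r = 0.81), and for *Aqp11* *Sphkap* (r = 0.89), *Ppm1e* (r = 0.86) and *Idh3a* (r = 0.86). *Mpdz* was nearest to *Cage1* (r = 0.86), *Fam126b* (r = 0.83) and *Fam168b* (r = 0.83), and *Ccdc88c* to *Gm715* (r = 0.82), *Macroh2a1* (r = 0.81) and *H2az1* (r = 0.80). *Ap1s2* had the loosest neighbours, *Ube2q2* (r = 0.73), *Tmem161b* (r = 0.68) and *Cltc* (r = 0.68). None of these 27 neighbours passed the threshold between genotypes.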

How the data were processed

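For 18 SVZ samples the authors deposited bead signals, an intensity per probe on a linear scale without normalization, with a detection p-value per probe that the authors' software, GenomeStudio per the labels (version not given in the sources used here), computed against negative control beads. A table of log2 values that the authors processed was deposited too (array medians 6.22 to 6.30, Spearman rho 1 with the signal in each array), not centred by gene, with a normalization not given in the sources used here. They served as an alternative. Of 45281 probes, 34885 had 1 gene symbol, 18 several and 10378 none, and 34807 matched a RefSeq gene by Entrez ID (0 symbols changed).

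Background correction from the detection p-values, an offset of 16, quantile normalization and the log2 step were done by neqc (limma 3.58.1, R 4.3.3). Probes detected (p under 0.05) on at least 9 arrays were fitted with genotype, hybridisation day and sex, and p-values were adjusted (Benjamini-Hochberg) over 21644 probes at a threshold of 0.05. Lists were described by the brightest kept probe per gene, without a list test. Permutations within days numbered 100000. The members and lists were chosen with earlier results of these data known. Named were all members, called list genes, the 2 genes of smallest p per list, defining markers and the 3 nearest genes per member. The fit was tested on simulated data.

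Replicates carry the numbers 1 to 9 in both groups, and the study describes paired littermates. Deviations of same-numbered arrays correlated over 0.1 in 9 of 9 pairs (mean r = 0.49), and in 4 of 9 within days (mean r = 0.06). The number as a block was an alternative, as were other background corrections, scalings, filters, covariates, single days, array weights, marker scores in the model, each mouse left out and the methods' t-test. Each sample is taken as 1 mouse, and 0 columns were left unused. The number of mice limits the precision.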

Additional observations from a re-analysis of the deposited data

Results flagged for a closer look

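Over the 30 probes, each group of 9 mice was searched for a highest or lowest value set apart from the rest (60 groups, with a gap of over 0.493 of the range), and 6 groups held one, where chance gives about 1 in 20. The *L1cam* probe held 2 of these: Tam-Idh1-KI replicate 3 read 6.65 (log2; next mouse 5.59), and control replicate 2 read 5.74 (next 5.21), on a probe detected on 4 of 18 arrays. *Snx27* probe 4, detected on all 18, read 11.84 in Tam-Idh1-KI replicate 7 (next 11.44), and without that mouse its log2 fold change was -0.02. The other 3 lay on probes detected on at most 4 arrays: *Aqp11* probe 2 read 5.30 in Tam-Idh1-KI replicate 7 (next 4.83), *Aqp9* probe 2 read 5.35 in control replicate 3 (next 4.92), and *Mpdz* probe 2 read 5.98 in control replicate 1 (next 5.33).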

How the results depend on the processing

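No probe of the 10 genes passed the threshold in the reported fit, in 36 alternatives or at an adjusted p under 0.1, including the fit blocked on replicate number (0 probes higher and 0 lower, smallest adjusted p 0.307, *Snx27*). The replicate block changed the call of *Ak8* and no other call reported here. The smallest adjusted p of any member in any setting was 0.166 (*Slc12a2* probe 3, array weights). The methods' t-test gave 1 of 18 member probes at nominal p under 0.05, against 1012 of 21644 kept probes. After Benjamini-Hochberg it gave 0 member probes. Over all probes, calls numbered 62 with array weights, 13 without covariates and with no detection filter, 11 with the block, 1 and 0 on the first and second day alone, 12 with the ependymal score and 5 by the methods' t-test, against 21. With 1 mouse left out they ran from 6 (without control replicate 8) to 32 (without control replicate 3). Median scaling moved the median of all probes to 0.10 and made 13 of 18 member probes positive, against 7. It moved 8 list medians past the spread between mice, to 0.066 to 0.17. Signs turned as follows, with causes not tested. Median scaling gave *Aqp11* probe 1 0.066, *Mpdz* probe 4 0.035, *Ccdc88c* probe 1 0.048 and *Snx27* probes 1 to 3 0.062, 0.115 and 0.115. The ependymal score in the model gave *Aqp4* probe 2 -0.014, against 0.27 as reported, *Aqp11* probe 1 0.28, *Mpdz* probe 4 0.14, *Ccdc88c* probe 2 -0.14 and *Snx27* probe 4 -0.081, and the choroid plexus score gave *Snx27* probe 3 0.0021. On the second day alone, fitted without sex, *Aqp1* probe 1 was at 0.32, against -0.14, *Aqp9* probe 1 at -0.020, *Mpdz* probe 5 at -0.091, *Ccdc88c* probe 1 at 0.063 and *Snx27* probe 3 at 0.051, and on the first, *Snx27* probes 2 and 4 at 0.0072 and -0.0036. Age as covariate gave *Aqp9* probe 1 -0.014, *Mpdz* probe 5 -0.031 and *Snx27* probe 2 0.026. Array weights gave *Ccdc88c* probe 2 -0.088 and *Snx27* probe 4 -0.0052, and the authors' log2 values gave *Mpdz* probe 5 -0.0076 and *Snx27* probes 2 and 3 0.011 and 0.011. *Mpdz* probe 5 was also at -0.0067 with cyclic loess, -0.0023 with day alone, with no covariates and by the methods' t-test, and -0.038 with the block. Leaving out 1 mouse at a time turned 28 values, all of probes within 0.09 of 0: the ranges were -0.17 to 0.068 for *Aqp4* probe 1, -0.10 to 0.0059 for *Aqp11* probe 1, -0.063 to 0.10 for *Mpdz* probe 5, -0.11 to 0.046 for *Ccdc88c* probe 1, -0.079 to 0.17 for *Ccdc88c* probe 2, and -0.053 to 0.019, -0.057 to 0.055 and -0.018 to 0.062 for *Snx27* probes 2 to 4. For *Aqp4* probe 2 it was 0.20 to 0.34. Dim probes limit what can be said of *L1cam* and *Aqp1*.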

Other observations

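Markers of further cell types, each list given by its tested genes and with no gene past the threshold, moved as follows between Tam-Idh1-KI and control SVZ (log2 fold changes). Neuroblast markers were positive for 5 of 5 genes with a median of 0.26, with *Cd24a* at 0.53 (SE 0.13; limma adjusted p = 0.152) and *Dcx*, the doublecortin gene, at 0.63 (SE 0.17; limma adjusted p = 0.221). SVZ progenitor markers were positive for 6 of 6 with a median of 0.25, with *Vim* at 0.45 (SE 0.16) and *Egfr* at 0.24 (SE 0.10). Oligodendrocyte markers were positive for 7 of 7 (median 0.15; *Mbp* 0.27, *Mobp* 0.24) and endothelial markers for 9 of 10 (median 0.07; *Slco1c1* 0.35, *Cdh5* 0.26). Erythroid genes were positive for 0 of 6 (median -0.28; *Slc4a1* -0.36, *Hba-a1* -0.23). Astrocyte genes were positive for 6 of 13 (median -0.01, with *Slc1a2* -0.22, *Fgfr3* -0.45, *Slc1a3* 0.03, *Gja1* 0.04). Neuron genes were positive for 2 of 6, with a median of -0.04. *Slc17a7* was at -1.14 with a wide SE of 0.56 (limma adjusted p = 0.587), and *Rbfox3* at -0.05. Microglia genes were positive for 5 of 7 (median 0.02, with *Csf1r* 0.20, *Cx3cr1* 0.11) and meningeal fibroblast genes for 2 of 3 (median 0.06, with *Igf2* 0.33, *Slc6a13* 0.06). Their part in the values of the aquaporins and hydrocephalus-linked genes was not tested. The correlations of *Aqp4* with the astrocyte and ependymal scores above do not test such a part.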
